A study of Mus musculus with 19 samples.

Results

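The 146 genes described here were the protein-coding neighbours of *Tbp* on mouse chromosome 17. *Tbp* encodes the TATA box-binding protein, the general transcription initiation factor whose expanded glutamine tract causes spinocerebellar ataxia type 17 (SCA17). A gene was a member when its start in the GENCODE M21 annotation of the GRCm38 genome lay between 5 and 25 Mb of chromosome 17 and when it had at least 10 counts in 3 or more libraries. *Tbp* itself, *Pde10a* and *Ndufb10* were left out by the rule. Of the 242 protein-coding genes of the window, 93 were under the count minimum and 146 were members, and the count table held 41128 genes in all. Apart from the 3 genes left out by name, the rule used position and level. It was set with earlier results of these data known, and the study names *Pde10a* among the genes lower in KI striatum.

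Gene expression was measured by RNA sequencing in 3 brain regions, the cerebellum, the striatum and the prefrontal cortex. The mice were germline SCA17 knock-in (KI) or wild type (WT), all labelled C57BL/6 and 3 months of age. There were 4 KI and 3 WT libraries of the cerebellum and 3 of each genotype for the striatum and for the prefrontal cortex, 19 in all. KI mice carried *TBP*-105Q, an allele with a long CAG repeat, in the germline. It was obtained by crossing mice with a floxed allele to mice with EIIa-Cre, a transgene that acts in the early embryo, so the allele was present in every cell and not in one brain cell type. The knock-in offspring were bred to WT mice, and the labels do not give the number of knock-in alleles per mouse. WT mice carried no targeted allele. The strain of the embryonic stem cells and the number of backcrosses are not given in the sources used here.

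When a targeted allele is bred into another strain, a block of the donor chromosome travels with it until crossing over removes the block. Genes in such a congenic flank can differ between mutant and control mice for reasons of ancestry. Genes close to the targeted gene are therefore usually looked at apart from the rest of the genome. This window also holds the proximal part of the mouse t-complex, a region known for inversions and for families of duplicated genes, and a cluster of zinc finger genes, a class that evolves quickly.

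Libraries held 10639110 to 17431284 counts, with a median of 15082703. The summed level of 7 granule cell markers was 3430 to 4420 CPM (counts scaled to a common library total) in the cerebellum and at most 108 CPM elsewhere, and that of 8 markers of striatal projection neurons was at most 825 CPM outside the striatum. Within the striatum the latter was 8130 to 9120 CPM in WT and 4160 to 6100 CPM in KI mice, with no overlap. In the cerebellum 8 Purkinje cell markers summed to 6240 to 6680 CPM in WT and 3940 to 5460 CPM in KI mice, and 7 astrocyte markers to 7260 to 7480 CPM in WT and 5520 to 6870 CPM in KI mice, again with no overlap. In the prefrontal cortex the astrocyte markers summed to 4400 to 4890 CPM in WT and 3480 to 4230 CPM in KI mice. These sums do not show that each marker fell. At an adjusted p under 0.05 in edgeR, 0 of 8 striatal markers were lower in KI striatum (0.582% of all tested genes differed). In KI cerebellum 1 of 8 Purkinje cell and 1 of 7 astrocyte markers were lower (0.831% differed). In KI prefrontal cortex 0 of 7 astrocyte markers were lower (0.107% differed). Interferon-stimulated genes differed between the genotypes, with a summed level over 12 genes of 65.7 to 137 CPM in the 9 WT libraries and 280 to 720 CPM in the 10 KI libraries. The part of these shifts in the results below was not tested. In bulk tissue, fewer cells of a type and less RNA per cell cannot be told apart.

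*Tbp* was measured in every library. Its level was 60.9, 52.5 and 62.0 CPM in WT cerebellum and 52.2, 54.3, 48.5 and 56.6 CPM in KI cerebellum. In the striatum it was 39.5, 49.6 and 44.0 CPM in WT and 38.1, 42.0 and 42.3 CPM in KI mice, and in the prefrontal cortex 36.6, 33.4 and 42.1 CPM in WT and 33.2, 35.9 and 32.0 CPM in KI mice. The genotypes overlapped in all 3 regions, and the mean KI effect of -0.14 on the log2 scale (SE 0.06) had an adjusted p of 0.347. A longer repeat in the same gene leaves its count in place, so the count does not check the genotype labels.

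The share of members that differed between genotypes was above that of all tested genes in the average of the regions, and below it in the cerebellum, with no test of the share itself. KI was compared with WT in each region, for the mean of the 3 regional effects and for the difference of the effect between regions, with edgeR's quasi-likelihood test over all 19 libraries. A gene was called at a Benjamini-Hochberg adjusted p under 0.05 over 16841 tested genes, among them all 146 members. In the cerebellum 0 members were called, where 0.831% of all tested genes were called, and 13 members (8.90%) had an unadjusted p under 0.05 beside 10.1% of all tested genes. In the striatum 1 member was called (0.685%), where 0.582% of all tested genes were called, and in the prefrontal cortex 1 member was called (0.685%) beside 0.107%. For the mean of the regions 6 members were called (4.11%), beside 1.35% of all tested genes. Of these 6, 3 were higher in KI mice, where 0.837% of all tested genes were called in that direction, and 3 were lower, where it was 0.517%. The difference of the KI effect between regions was called for 0 members by edgeR, where 0.0238% of all tested genes were called. DESeq2 called more genes throughout. It called 2 members (1.37%) in the cerebellum beside 2.00% of all tested genes, 3 (2.05%) in the striatum beside 1.27%, 2 (1.37%) in the prefrontal cortex beside 0.309%, 9 (6.16%) in the mean beside 2.61%, and 1 (0.685%) for the difference beside 0.493%.

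The counts at the wider threshold were larger. At an unadjusted p under 0.05, members numbered 22 (15.1%) in the striatum, where the share of all tested genes was 8.12%. In the prefrontal cortex they numbered 18 (12.3%), with 5.93% of all tested genes, and for the mean of the regions 34 (23.3%), with 12.3%. For the difference between regions they numbered 8 (5.48%), with 6.22%. The 34 members of the mean were split evenly, with 17 higher and 17 lower in KI mice. The median effect over all members was -0.01 on the log2 scale, and the median size of an effect without its sign was 0.12 for members and 0.09 for all tested genes. The sign was the same in all 3 regions for 68 members (46.6%), and for 33.6% of all tested genes.

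The overlap of the libraries was also counted, without a model. KI and WT libraries did not overlap for 31 members (21.2%) in the striatum, where the share of all tested genes was 14.1%. They did not overlap for 25 members (17.1%) in the prefrontal cortex, where it was 8.69%. In the cerebellum this held for 12 members (8.22%), where it was 12.3% of all tested genes. By this count the flank was above all tested genes in both forebrain regions and below them in the cerebellum. A single member, *E4f1*, was apart in the same direction in all 3 regions, a share of 0.685% beside 0.546% of all tested genes.

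The excess in the mean was not limited to the window. The rest of chromosome 17 held 566 tested protein-coding genes, of which 21.6% had an unadjusted p under 0.05 in the mean of the regions, beside 12.1% of 14167 genes on other chromosomes. Among the 20 chromosomes with at least 100 tested protein-coding genes, chromosome 17 had the highest share, 22.1%, and the other chromosomes lay between 9.14% and 14.4%. In the forebrain the rest of the chromosome was closer to the other chromosomes than the members were, with 10.1% against 8.17% in the striatum and 6.71% against 5.89% in the prefrontal cortex. In the cerebellum the order was the reverse, with 13.1% for the rest of the chromosome and 8.90% for members. The window and the rest of the chromosome were not compared by a test.

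**Figure D1:**
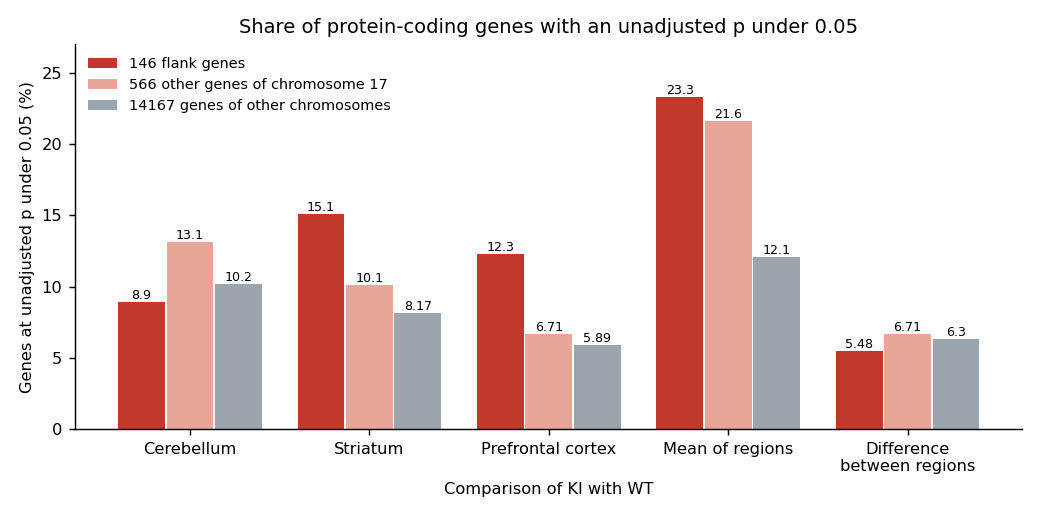
Share of tested protein-coding genes with an unadjusted p under 0.05 (y axis, percent) in each comparison of KI with WT (x axis), for the 146 members, for 566 other genes of chromosome 17 and for 14167 genes of other chromosomes. In the mean of the regions the members reach 23.3% and the rest of the chromosome 21.6%, beside 12.1% elsewhere, and in the cerebellum the members, at 8.90%, lie below the other chromosomes.

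Members at an unadjusted p under 0.05 in the mean lay all along the window. They were 7 of 29 members from 5 to 10 Mb, 6 of 24 from 10 to 15 Mb, 4 of 13 from 15 to 20 Mb and 17 of 80 from 20 to 25 Mb, so the share was between 21.2% and 30.8% in every stretch. The 6 called members lay in the first and the last of these stretches, which held 29 and 80 members. *Tmem242*, *Dynlt1b* and *Tagap* had their starts 7.57 to 10.1 Mb below the start of *Tbp*, and *Zfp758*, *E4f1* and *Spsb3* 6.86 to 9.39 Mb above it. Between 10 and 20 Mb 0 of 37 members were called in the mean by edgeR, with 10 of them at an unadjusted p under 0.05. With 1.35% of all tested genes called, 37 members are too few to read a position from this count.

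**Figure D2:**
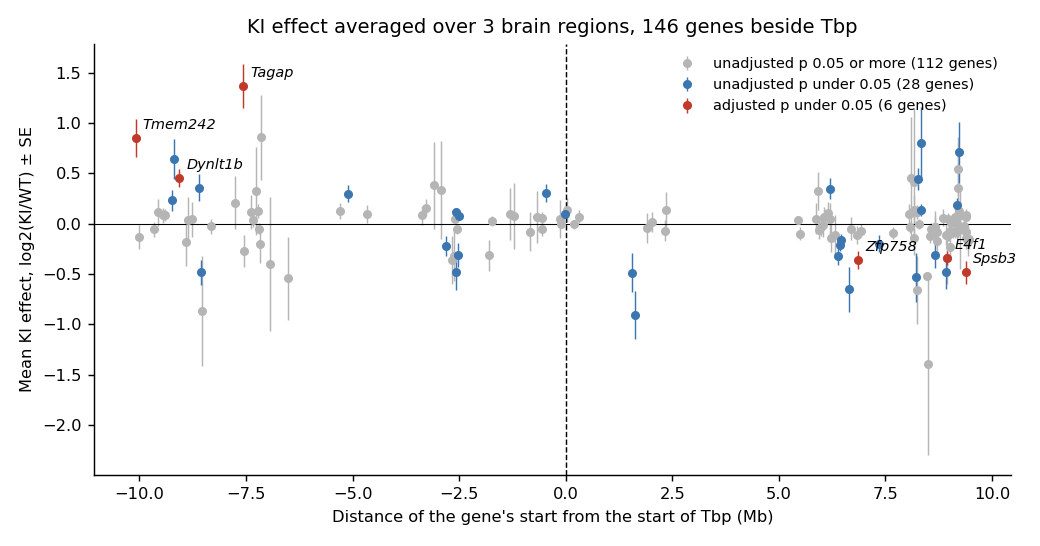
Mean KI effect of each member over the 3 regions (y axis, log2 of KI over WT, bars are the SE) against the distance of its start from the start of *Tbp* (x axis, Mb, dashed line at *Tbp*). The 6 called genes (red) and the 28 other genes at an unadjusted p under 0.05 (blue) are spread over both sides, and *Prss30*, at a mean of 0.304 CPM, is drawn without its bar because its SE could not be estimated.

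*Tagap*, which encodes a GTPase-activating protein named for T cell activation, had the largest change among the called members. Its level was 2.34, 4.24 and 2.78 CPM in WT striatum and 11.2, 9.46 and 7.73 CPM in KI striatum. In the prefrontal cortex it was 3.08, 3.12 and 1.15 CPM in WT and 16.0, 15.1 and 8.81 CPM in KI mice. Every forebrain KI library was above every forebrain WT library, by an effect of 1.60 on the log2 scale in the striatum (SE 0.39, adjusted p = 0.0912) and 2.44 in the prefrontal cortex (SE 0.40, adjusted p = 0.0168). In the cerebellum the groups overlapped, with 9.32, 5.31 and 7.28 CPM in WT and 6.02, 12.8, 5.77 and 5.98 CPM in KI mice and an effect of 0.07 (SE 0.35, adjusted p = 0.983). The mean effect over the regions was 1.37 (SE 0.22, adjusted p = 0.00208), and *Tagap* stayed called in the mean under all 34 alternatives that were run. The call in the prefrontal cortex was lost in 12 of 35, with an adjusted p of up to 0.290 when the region was fitted alone. The test of the difference between regions gave an adjusted p of 0.33. *Tagap* is expressed by immune cells. Of 15 microglia markers, 12 were called higher in KI cerebellum, 1 in KI striatum and 0 in KI prefrontal cortex. Their summed level in the prefrontal cortex, 844 to 907 CPM in WT and 786 to 966 CPM in KI mice, overlapped between the genotypes. Of 11 tested interferon-stimulated genes, 11 were called higher in KI cerebellum, 11 in KI striatum and 7 in KI prefrontal cortex. The shares of all tested genes called in either direction were 0.831%, 0.582% and 0.107%. Whether immune cells or the interferon response have a part in the change of *Tagap* was not tested.

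*Tagap1*, a close copy of *Tagap* whose start lies 0.971 Mb from it, had effects of the opposite sign in the forebrain. Its level was 42.5, 42.8 and 43.1 CPM in WT prefrontal cortex and 20.8, 19.9 and 31.7 CPM in KI prefrontal cortex. In the striatum it was 29.2, 24.5 and 30.3 CPM in WT and 15.4, 15.1 and 26.0 CPM in KI mice. In the prefrontal cortex all KI libraries were below all WT libraries, while in the striatum the third KI library lay within the WT range. The mean effect was -0.48 (SE 0.12, adjusted p = 0.0586) and was not called. Of all 75-base stretches of its annotated transcripts, 66.5% were also found in another gene, mostly in *Tagap*, and 50.1% of those of *Tagap* were found elsewhere, so reads of the pair are hard to assign and both levels are uncertain.

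*Tmem242* encodes a small mitochondrial membrane protein needed to assemble ATP synthase. Its level was 50.6, 19.1 and 31.5 CPM in WT and 83.1, 82.2 and 56.7 CPM in KI striatum. In the prefrontal cortex it was 40.9, 21.5 and 30.1 CPM in WT and 74.8, 84.5 and 41.3 CPM in KI mice. All KI forebrain libraries were above the WT libraries of their region, the third KI library of the prefrontal cortex by a margin of less than 1 CPM. In the cerebellum 6 of the 7 libraries, of both genotypes, lay between 35.3 and 43.1 CPM, and the second KI library was at 69.4 CPM. The mean effect was 0.85 (SE 0.19, adjusted p = 0.0283), and the call was lost in 15 of 34 alternatives. None of the 75-base stretches of *Tmem242* occurred in another annotated gene.

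*Dynlt1b* belongs to a family of light chains of dynein, the motor that carries cargo along microtubules towards the cell centre. In the striatum it was at 4.94, 6.02 and 4.25 CPM in WT and 9.12, 6.74 and 7.86 CPM in KI mice, and in the prefrontal cortex at 6.51, 6.11 and 5.93 CPM in WT and 9.09, 9.89 and 9.00 CPM in KI mice. KI libraries were higher with no overlap in both regions. In the cerebellum they overlapped, at 16.8, 18.7 and 13.3 CPM in WT and 15.5, 19.1, 17.7 and 19.0 CPM in KI mice. The mean effect was 0.45 (SE 0.09, adjusted p = 0.0149), and the call was lost in 4 of 34 alternatives. It was lost with a block by mouse over the forebrain libraries (adjusted p = 0.0555, limma) and with a block within regions (adjusted p = 0.0822, edgeR). It was also lost in edgeR without both forebrain libraries of KI number 1 (adjusted p = 0.0542) or of WT number 3 (adjusted p = 0.0601). The 4 copies of the family that were members share 62.4% to 84.8% of their 75-base stretches with other genes, so the values of single copies are uncertain. *Dynlt1a* had a mean effect of 0.64 (SE 0.20, adjusted p = 0.161), which was not called.

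*E4f1* encodes a zinc finger transcription factor and ubiquitin ligase that acts with p53, and was lower in KI mice in every region. It was at 50.4, 63.6 and 59.3 CPM in WT and 42.0, 37.2, 45.3 and 49.6 CPM in KI cerebellum. In the striatum it was at 43.5, 43.4 and 47.7 CPM in WT and 35.5, 31.7 and 39.8 CPM in KI mice, and in the prefrontal cortex at 43.1, 42.9 and 50.0 CPM in WT and 38.1, 31.4 and 42.0 CPM in KI mice. The groups did not overlap in any region, with the smallest gap, below 1 CPM, in the cerebellum and the prefrontal cortex. The mean effect was -0.34 (SE 0.07, adjusted p = 0.0228). The call was lost in 8 of 34 alternatives, among them sex as a covariate (adjusted p = 0.0564).

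*Spsb3*, a substrate receptor of a cullin ubiquitin ligase, was also lower, with a mean effect of -0.48 (SE 0.11, adjusted p = 0.038). This call was lost in 23 of 34 alternatives, with an adjusted p of up to 0.190 and of 0.0773 with sex as a covariate. *Spsb3* was at 10.1, 8.40 and 11.6 CPM in WT and 6.89, 7.04 and 7.40 CPM in KI striatum. In the cerebellum the first WT library, at 18.5 CPM, lay within the KI range of 17.1 to 22.0 CPM, and the other WT libraries were at 33.9 and 31.7 CPM. *Spsb3* shares 62.3% of its exon length with *Eme2*, a DNA repair gene, and the library kit does not mark strand, so reads of the shared stretch cannot be told apart. The 85 members that share no exon with another gene held 4 of the 6 calls in the mean and 21 members (24.7%) at an unadjusted p under 0.05.

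**Figure D3:**
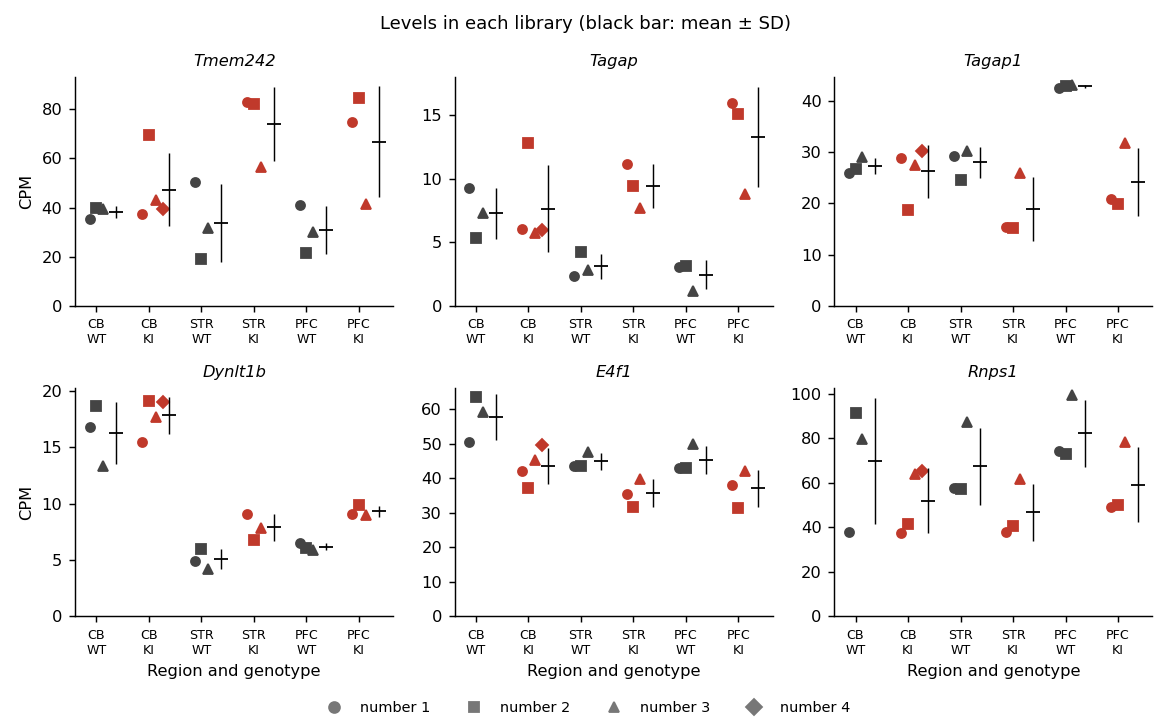
Levels of 6 members in every library (y axis, CPM), by region and genotype (x axis: CB, cerebellum; STR, striatum; PFC, prefrontal cortex; black WT, red KI), with 1 symbol for each library number and a black bar for the mean and SD. *Tmem242* and *Tagap* are higher in KI forebrain, where the third KI library is the lowest KI library of both regions, and *Rnps1* spans 37.3 to 64.0 CPM between KI cerebellum libraries 1 and 3.

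The promoters of 5 of the 7 called members are shown because TBP, the product of the altered gene, binds the TATA box, and because SP1, which binds the GC box, was examined in the study as a partner of TBP. They are the 120 bases before the RefSeq start in GRCm38.p6, written 5′ to 3′ on the strand of the gene, with any TATAAA or GGGCGG, on either strand, in capitals (CCGCCC is GGGCGG on the opposite strand). They lie at chr17:5440261-5440380 (minus strand) for *Tmem242*, chr17:7925880-7925999 (plus) for *Tagap*, chr17:21707621-21707740 (plus) for *Zfp760*, chr17:22361343-22361462 (plus) for *Zfp758* and chr17:24455393-24455512 (minus) for *E4f1*.
Tmem242: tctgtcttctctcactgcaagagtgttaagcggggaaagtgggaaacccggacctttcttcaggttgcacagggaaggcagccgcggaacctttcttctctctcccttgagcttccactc
Tagap: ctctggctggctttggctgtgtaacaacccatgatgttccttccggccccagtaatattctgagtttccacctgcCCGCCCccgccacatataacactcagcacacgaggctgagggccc
Zfp760: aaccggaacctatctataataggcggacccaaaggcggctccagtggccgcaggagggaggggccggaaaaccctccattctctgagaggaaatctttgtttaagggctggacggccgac
Zfp758: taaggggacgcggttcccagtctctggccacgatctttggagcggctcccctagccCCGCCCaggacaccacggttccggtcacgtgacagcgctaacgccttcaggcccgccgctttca
E4f1: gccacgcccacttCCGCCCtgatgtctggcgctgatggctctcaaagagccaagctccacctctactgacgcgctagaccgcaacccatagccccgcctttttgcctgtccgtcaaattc
None of these 5 windows held the exact letters TATAAA, and *Tagap*, *Zfp758* and *E4f1* each held a single GC box. Near matches, such as tataac in the *Tagap* window and tataat in that of *Zfp760*, were not searched for, so a TATA-like element is not excluded. *Dynlt1b* had no promoter in the RefSeq table. *Spsb3* had 4 there, which are not printed, and 2 of them held a GC box. The table gave 148 promoters for 117 of the 146 members. TATAAA was found in 1 of the 148 (0.676%), in 3.05% of 14927 promoters of tested protein-coding genes and in 6.34% of all 32851 promoters. GGGCGG was found in 76 of the 148 (51.4%), in 46.1% of promoters of tested protein-coding genes and in 26.5% of all promoters. The RefSeq start of *E4f1* lies 14.9 kb from the outermost GENCODE start.

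The effects on zinc finger genes of the window were mostly below 0. They were the 26 members whose symbol begins with Zfp. Most genes so named encode DNA-binding proteins, many of which repress genes and mobile elements, while *Zfp598* encodes a ubiquitin ligase that acts on stalled ribosomes. The mean effect was below 0 for 20 of them, with a median of -0.09, and 203 of 317 Zfp genes on other chromosomes were also below 0, with a median of -0.04. At an unadjusted p under 0.05, 8 (30.8%) were lower and 1 (3.85%) was higher, beside 12.3% lower and 2.21% higher of the Zfp genes elsewhere and 6.34% lower and 5.94% higher of all tested genes. *Zfp758* was called in the mean, with an effect of -0.36 (SE 0.09, adjusted p = 0.0436). This call was lost in 24 of 34 alternatives, with an adjusted p of up to 0.148 and of 0.110 with sex as a covariate. *Zfp758* was at 15.8, 20.5 and 20.6 CPM in WT and 13.8, 10.8 and 15.0 CPM in KI prefrontal cortex, with no overlap, and overlapped between genotypes in the other regions.

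Among the Zfp members *Zfp97* had the mean effect farthest below 0, which was not called, at -0.91 (SE 0.24, adjusted p = 0.075). It was at 4.54, 5.20 and 5.79 CPM in WT and 1.49, 3.67 and 2.05 CPM in KI striatum. Of its 75-base stretches, 74.0% occur in another gene, mainly its neighbour *Zfp960*. *Zfp760* was the only Zfp member called in a single region, at 8.41, 8.03 and 7.03 CPM in WT and 17.5, 14.9 and 11.5 CPM in KI striatum. Its KI libraries were all higher, with an effect of 0.90 (SE 0.19, adjusted p = 0.0417). In the cerebellum its effect was -0.10 (SE 0.17) and in the prefrontal cortex 0.24 (SE 0.19), neither of them called, and the difference between regions had an adjusted p of 0.516. The *Zfp760* call was lost, with an adjusted p of up to 0.262, in 22 of 35 alternatives.

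**Figure D4:**
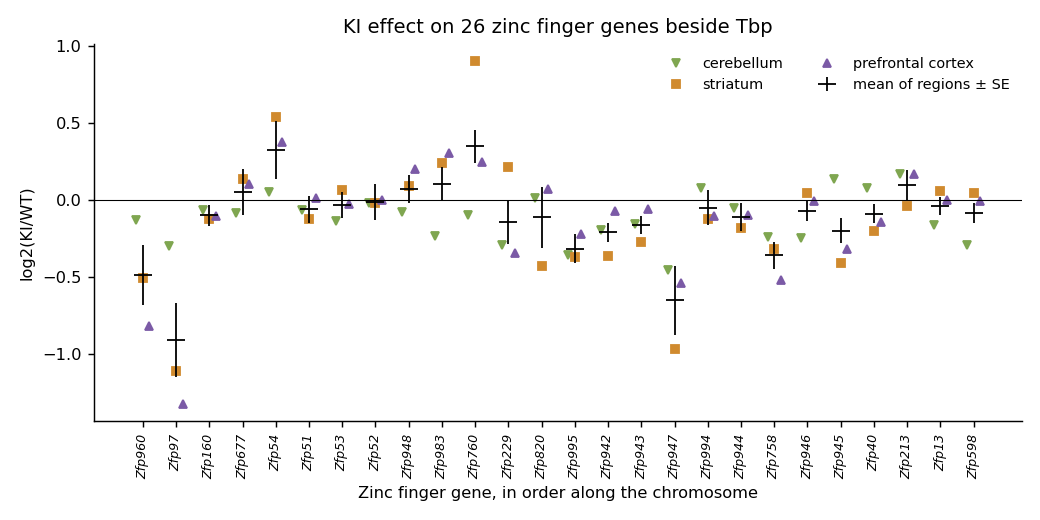
KI effect (y axis, log2 of KI over WT) on the 26 Zfp members in order along the chromosome (x axis), with a coloured symbol for each region and a black mark for the mean with its SE. The mean lies below 0 for 20 of 26 genes, and *Zfp760* stands apart with 0.90 in the striatum.

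The genes next to *Tbp* were described as a group of 6. Below *Tbp* lie *Psmb1*, a core subunit of the proteasome, *Fam120b*, a coactivator of a nuclear receptor, and *Dll1*, a Notch ligand. Above it lie *Prdm9*, which marks sites of meiotic recombination, *Chd1*, a chromatin remodeller, and *Rgmb*, a co-receptor for bone morphogenetic proteins. Their mean effects ran from -0.005 for *Chd1* to 0.14 for *Prdm9*, and 0 of 6 were called in any comparison by edgeR. Over all tested genes 1.35% were called and 12.3% had an unadjusted p under 0.05 in the mean, so counts among 6 genes tell little. Single regions differed more. *Dll1* had effects of 0.42 in the cerebellum (SE 0.31) and -0.30 in the prefrontal cortex (SE 0.33). *Prdm9* had an effect of 0.51 in the prefrontal cortex (SE 0.23, adjusted p = 0.854), where its KI libraries lay above the WT libraries, at 1.27 to 1.82 CPM against 0.890 to 1.22 CPM. The KI libraries of *Rgmb* were also all above WT there, at 56.7 to 59.9 CPM against 55.5 to 56.6 CPM. In that region 8.69% of all tested genes had no overlap of the genotypes. *Psmb1* had the only unadjusted p under 0.05 among them in the mean, with an effect of 0.10 (SE 0.04, adjusted p = 0.34). It was at 196, 186 and 178 CPM in WT and 203, 222 and 195 CPM in KI prefrontal cortex, and the groups overlapped.

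Few members of the lists by role were called, and the lists are short. The shares over all tested genes in the mean were 1.35% called, 5.94% higher and 6.34% lower at an unadjusted p under 0.05. The lists do not hold every gene of a role. The called *Tmem242* is not in the mitochondrial list, and the called *E4f1* and *Spsb3* are not in that of proteasome and ubiquitin. Of the 11 listed mitochondrial members, such as *Sod2*, the superoxide dismutase of the matrix, and *Hagh*, an enzyme that clears methylglyoxal products, 0 were called and 1 had an unadjusted p under 0.05 in the mean. *Sod2* had a mean effect of 0.07 (SE 0.03, adjusted p = 0.387). Of 9 members of synapse and neuronal signalling, 0 were called and 1 had an unadjusted p under 0.05 in the mean. It was *Syngr3*, a protein of synaptic vesicles, with an effect of 0.18 (SE 0.07, adjusted p = 0.272). Of 13 members of membrane traffic and cytoskeleton, *Dynlt1b* was called and 3 were higher at an unadjusted p under 0.05. Among 6 immune members *Tagap* was called, with 1 higher and 1 lower at an unadjusted p under 0.05.

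In the remaining lists, taken from the mean of the regions, 0 members were called by edgeR. Of the 8 listed members of proteasome and ubiquitin 2 were higher at an unadjusted p under 0.05, of 7 members of protein folding and translation 2 were higher, and of 11 members of growth factor and kinase signalling 0 passed it in either direction. One of those 2 was *Tcp1*, a subunit of the chaperonin that folds actin and tubulin, with an effect of 0.11 (SE 0.04, adjusted p = 0.213). Of 5 members of RNA processing 1 was lower, and of 6 of transcription and chromatin 1 was higher. In the imprinted cluster around *Igf2r*, the receptor that clears insulin-like growth factor 2, 1 of 4 members was lower. It was *Igf2r* itself, with an effect of -0.22 (SE 0.10, adjusted p = 0.373). Of 6 cilium and t-complex members 2 were higher at that p, and of 6 members of extracellular matrix and adhesion 0 passed in either direction. The members with the highest WT level per kb of exon were *Ppp2r1a*, the scaffold of protein phosphatase 2A, at 236 CPM per kb, *Syngr3* at 156 and *Hagh* at 90.5, and *Ppp2r1a* had a mean effect of 0.04 (SE 0.04, adjusted p = 0.801).

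In the cerebellum, where 0 members were called by edgeR, the smallest p belonged to *Spaca6*, a sperm protein gene that was measured in all 3 regions. It was at 30.5, 34.5 and 34.5 CPM in WT and 18.7, 21.8, 22.4 and 25.2 CPM in KI cerebellum. The KI libraries were all lower, with an effect of -0.59 (SE 0.17, adjusted p = 0.13). The effect was 0.02 (SE 0.19) in the striatum and 0.36 (SE 0.18) in the prefrontal cortex, and the difference between regions had an adjusted p of 0.499. DESeq2 gave the cerebellar effect an adjusted p of 0.0314.

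The libraries with the same number in the striatum and the prefrontal cortex deviated together, and those of the cerebellum did not join them. Across all tested genes, deviations from the group mean correlated by 0.233 to 0.368 in each of the 6 same-number pairs of striatum and prefrontal cortex, and by -0.104 to 0.163 between same-number libraries of the cerebellum and another region. Counts of *Xist* and of Y-linked genes gave the same sex to the 6 pairs of forebrain libraries and another order of sexes in the cerebellum. The labels do not name the mouse. The edgeR fit has no term for it and treats the forebrain libraries as independent, while a limma fit with a block by mouse called 4 members in the mean. The share of all tested genes called in that limma fit is not given here, so its count cannot be read as an excess. The sexes were not balanced between genotypes, with 1 of 3 KI and 2 of 3 WT forebrain pairs female. Within genotypes, the members' deviations in the striatum correlated with those in the prefrontal cortex by a median of 0.34 over the 6 pairs, beside 0.18 for all tested genes. A correlation of at least 0.9 was found for 7 members (4.79%), beside 4.75% of all tested genes, so the strongest agreement was no more frequent in the flank.

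Values that differed between libraries of one genotype are given for the members with the highest agreement. *Rnps1*, an RNA-binding protein deposited at exon junctions, correlated by 0.982 over the 6 pairs. It was at 57.5, 57.4 and 87.2 CPM in WT striatum and 74.4, 72.7 and 99.3 CPM in WT prefrontal cortex. In KI mice it was at 37.7, 40.8 and 61.5 CPM in the striatum and 49.2, 49.9 and 78.4 CPM in the prefrontal cortex. In both regions and both genotypes the third library was the highest and the other two differed by less than 4 CPM. In the cerebellum it was at 38.0, 91.5 and 79.7 CPM in WT and 37.3, 41.6, 64.0 and 65.1 CPM in KI mice, so a WT library lay among the lowest. The mean effect of -0.48 (SE 0.17, adjusted p = 0.251) was not called.

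For *Tmem242*, *Tagap* and *Tagap1* the second KI cerebellum library was nearer to forebrain KI libraries 1 and 2 than the other KI cerebellum libraries were. *Tmem242* was at 69.4 CPM there and at 37.3 to 43.1 CPM in the other KI cerebellum libraries, *Tagap* at 12.8 CPM against 5.77 to 6.02 CPM, and *Tagap1* at 18.7 CPM against 27.4 to 30.2 CPM. Forebrain KI libraries 1 and 2 were at 74.8 to 84.5 CPM for *Tmem242*, 9.46 to 16.0 CPM for *Tagap* and 15.1 to 20.8 CPM for *Tagap1*. The KI libraries were thus not alike for these genes, and the third forebrain KI library lay between the other forebrain KI libraries and the WT libraries for *Tmem242* and *Tagap* in both regions. By *Xist* and Y-linked counts KI cerebellum libraries 2 and 4 and forebrain KI libraries 1 and 2 were male. KI cerebellum libraries 1 and 3 and forebrain KI library 3 were female. The pseudogene *Tmem181c-ps*, which is no member and was chosen after its values were seen, lies between *Dynlt1b* and *Ezr*. It had 0 to 0.132 CPM in all 6 KI forebrain libraries. In both forebrain regions WT libraries 1 and 2 were at 2.90 to 3.47 CPM and WT library 3 at 0 CPM. All 7 cerebellum libraries were at 1.77 to 5.08 CPM. Of the 75-base stretches of the member *Tmem181a*, 28.9% occur in another gene, mostly in *Tmem181b-ps* and *Tmem181c-ps*, so reads of these copies are hard to assign. *Tmem181b-ps* had effects of 0.41 (SE 0.16) in the striatum, 0.32 (SE 0.16) in the prefrontal cortex and -0.06 (SE 0.15) in the cerebellum, none called.

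The 6 calls in the mean did not all hold when libraries were left out, and only *Tagap* stayed called throughout. Of the 6, new calls not counted, 2 stayed called without WT cerebellum library 2 or 3 or WT prefrontal cortex library 3. Without KI prefrontal cortex library 1 or 2 or WT prefrontal cortex library 2, 3 of the 6 stayed called. The same 3, *Tagap*, *Dynlt1b* and *E4f1*, stayed called without KI striatum library 1 or 2 or WT striatum library 3. Without both forebrain libraries of a mouse the total was 1 (KI number 1 or WT number 3) to 6, new calls included. *Spsb3* lost its call in each of these fits by mouse. The share of members at an unadjusted p under 0.05 in the mean stayed between 16.4% and 26.7% whichever library or mouse was left out. Over all tested genes 0.891% to 1.48% were called in the mean in these fits, and 10.4% to 12.9% had an unadjusted p under 0.05.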

How the data were processed

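The authors deposited counts of reads per Ensembl gene for 19 libraries, made with SMART-Seq v4 and Nextera XT. The submitters' processing notes name bcl2fastq 2.17.1.14, STAR 2.5.2b, HTSeq, DESeq2 1.10.1 and GRCm38.p3, while the study's methods name Cufflinks and Cuffdiff; the use of strand and the annotation are not given in the sources used here. A table of the same counts divided by size factors was not used here. Annotation was GENCODE M21, in which 40254 of 41128 genes had an entry.

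Counts were fitted in edgeR 4.0.16 (R 4.3.3) with a quasi-likelihood model of 6 groups of region and genotype over all 19 libraries, filterByExpr and TMM. It left 13 residual degrees of freedom, and genes varied between libraries by a biological coefficient of 0.191. The Benjamini-Hochberg method was applied over 16841 genes. Groups and numbers came from the titles. The study describes the samples of a group as separate mice, and no source used here links mice across regions. Reads carry no molecular identifiers. Members were named when called, when among the 3 smallest p-values per direction with no overlap of the genotypes, when among the 3 nearest to *Tbp* on either side, and when among the 3 highest in level per kb, or in CPM within a list. The members and lists were chosen with earlier results of these data known. Alternatives used DESeq2 1.42.0 and limma 3.58.1. The edgeR, DESeq2 and limma fits without blocks or covariates were tested on simulated counts with known changes in the cerebellum only.

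Whether the numbers pair libraries was checked by correlating deviations from the group means. Same-number libraries of the striatum and the prefrontal cortex correlated by 0.233 to 0.368, and KI and WT libraries with the same number in a region by -0.245 to 0.172, so the numbers do not pair the genotypes.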

Additional observations from a re-analysis of the deposited data

Results flagged for a closer look

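In the 4 KI cerebellum libraries, 5 of 52 named members had a library apart from the others by Dixon's test on CPM, which chance gives in about 1 of 20 groups. *Tagap* was at 12.8 CPM in KI library 2, where the others were at 5.77 to 6.02 CPM. *Slc22a3*, a cation transporter, was at 0.554 CPM in the same library, where the others were at 0 to 0.0605 CPM. *Igf2r* was at 30.2 CPM in library 4, where the highest of the others was at 21.6 CPM. *Psmb1* was at 156 CPM in library 4, where the others were at 182 to 184 CPM. *Rps2*, a ribosomal protein with many pseudogene copies, was at 45.1 CPM in library 3, where the others were at 38.8 to 39.9 CPM.

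*Tedc2*, a gene of centriole assembly, had KI libraries all above WT in the striatum, with an effect of 0.31, and all below WT in the prefrontal cortex, with an effect of -0.33. The test of the difference between regions gave an adjusted p of 0.683.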

How the results depend on the processing

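The counts of called members were small and changed with the tool. DESeq2 called 2 members in cerebellum (beside 2.00% of all tested genes), 3 in striatum (beside 1.27%), 2 in prefrontal cortex (beside 0.309%) and 1 for the difference between regions (beside 0.493%). Fitting each region alone called 0 in striatum and 0 in prefrontal cortex. With sex as a covariate 1 was called in cerebellum, 0 in striatum and 3 in the mean, where the lower *E4f1*, *Spsb3* and *Zfp758* lost their calls, and 11 prefrontal members had an unadjusted p under 0.05. The shares of all tested genes in the fits by region and with sex are not given here.

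With the replicate block within regions, 0 members were called in striatum, 0 in prefrontal cortex and 6 in the mean, where *Tmem242*, *Dynlt1b* and *Zfp758* lost their calls, with adjusted p of 0.0567, 0.0822 and 0.0519, and 20 in cerebellum had an unadjusted p under 0.05. In limma voom, the replicate block across regions, no replicate block and the replicate block by mouse (pairing striatum with prefrontal cortex, added after seeing the data) each called 1 member in cerebellum and 0 in striatum, and 5, 6 and 4 in the mean. The shares of all tested genes in these fits and with the block within regions are not given here. By mouse, *Dynlt1b*, *Zfp758* and *Spsb3* lost their calls, with adjusted p of 0.0555, 0.0596 and 0.190. The block changed no other count of calls by over 1.5 times. KI and WT libraries share numbers without deviating together.

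Windows and member rules change the number of genes that can be called. From 10 to 20 Mb, with 37 genes, 0 were called in striatum, 0 in prefrontal cortex and 0 in the mean, and unadjusted counts were 4 in cerebellum, 6 in striatum, 5 in prefrontal cortex, 10 in the mean and 2 for the difference. From 0 to 30 Mb, with 261 genes, 2 were called in the cerebellum, and unadjusted counts were 24 in the cerebellum, 56 in the mean and 15 for the difference. Without members that share an exon (added after seeing the data), 0 were called in the prefrontal cortex, and unadjusted counts were 6 in the cerebellum, 10 in the prefrontal cortex, 21 in the mean and 3 for the difference. Of all tested genes 0.831% were called in the cerebellum, 0.582% in the striatum, 0.107% in the prefrontal cortex and 1.35% in the mean. At an unadjusted p under 0.05 the shares were 10.1%, 8.12%, 5.93% and 12.3%, with 6.22% for the difference.

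Leaving out single libraries, or both forebrain libraries of a mouse (added after seeing the data), the called members ranged from 0 to 2 in cerebellum, 0 to 2 in striatum, 0 to 2 in prefrontal cortex and 1 to 8 in the mean. Cerebellum calls numbered 2 without its WT library 1 and 1 without its KI library 4, prefrontal cortex KI library 3 or both forebrain libraries of KI 3. Striatum calls numbered 2 without prefrontal cortex WT library 3 or both of KI 3. The *Zfp760* call was lost without any 1 striatum library except KI 3, and also without cerebellum KI 2, KI 4 or WT 3 or prefrontal cortex KI 1, KI 2 or WT 2. The *Tagap* call in prefrontal cortex was lost without any 1 library of that region except KI 3, and 2 members were called there without both of KI 3. Calls in the mean numbered 8 without prefrontal cortex KI library 3, and 2 without both of WT 2. Unadjusted counts ranged from 8 (without cerebellum WT 2 or WT 3) to 18 in cerebellum, 12 (without both of KI 1, and 13 without striatum KI 1) to 24 in striatum, 12 to 23 in prefrontal cortex, 24 to 39 in the mean and 6 to 12 for the difference. Over all tested genes the share called ranged from 0.424% to 0.901% in cerebellum and from 0.209% to 0.702% in striatum. It ranged from 0.0291% to 0.113% in prefrontal cortex and from 0.891% to 1.48% in the mean. At an unadjusted p under 0.05 it was 7.37% to 11.5% in cerebellum, 5.98% to 10.5% in striatum and 4.88% to 8.52% in prefrontal cortex. In the mean it was 10.4% to 12.9%, and for the difference 5.11% to 7.79%.

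Of the 8 calls named, *Tagap* in the mean held in all 34 alternatives, *Dynlt1b* in 30, *E4f1* in 26, *Tmem242* in 19, *Spsb3* in 11 and *Zfp758* in 10. None of the 8 changed sign. The largest adjusted p of a call was 0.29, for *Tagap* in the prefrontal cortex fitted alone. Among the named members, for which alternatives were run, the sign turned for *Fam120b*, *Chd1* and *Dll1*, next to *Tbp*. *Fam120b* was at -0.005 in DESeq2 and with its size factors and at -0.01 with the replicate block within regions, and *Chd1* at 0.01 with sex. Leaving out libraries gave *Fam120b* -0.02 to 0.04, *Chd1* -0.04 to 0.02 and *Dll1* -0.05 to 0.27. The causes were not tested.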
